A study of Rattus norvegicus with 6 samples.

Results

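Zinc, copper, iron and magnesium handling was described through 38 genes out of 20653 in the count table of rat nasal mucosa mesenchymal stem cells. They were chosen by symbol, with earlier results of these data known. The set held the zinc exporters of the Slc30a family, the zinc importers of the Slc39a family and the copper carriers Slc31a1 and Slc31a2. It also held the iron and metal carriers Slc11a1 and Slc11a2 and the magnesium carriers Slc41a1 to Slc41a3. The other members were Slc40a1, Mt1, Mt2A, Mt3, Mtf1, Atp7a, Atp7b, Tfrc, Ireb2, Cp and Ccs. RNA sequencing covered 3 libraries of cells labelled EMSC and 3 of cells labelled NPS-EMSC, which per the series title overexpress neuropeptide S. All 6 were primary cells with SD given as the genotype. The labels name no delivery vector, no control vector in EMSC, no clone and no age, and no label says that libraries of a group came from separate cultures, so the p-values measure the spread between these libraries, which may be technical.

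Cells keep free metal ions scarce by pairing carriers with binding proteins. Slc39a proteins bring zinc into the cytosol from outside or from organelles, Slc30a proteins move it out of the cytosol, and metallothioneins bind the zinc and copper that remain. The transcription factor Mtf1 senses zinc and switches on the metallothionein genes and Slc30a1 through metal response elements in their promoters. Iron enters with transferrin through the receptor encoded by Tfrc, is stored in ferritin and leaves through ferroportin (Slc40a1), and ferroxidases such as ceruloplasmin (Cp) oxidise it on the way out. Copper enters through Slc31a1 and is handed by chaperones to enzymes and to the pumps Atp7a and Atp7b.

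The libraries held 39082245 to 40261205 counted reads, and the 38 genes together took 0.236% to 0.245% of them. Nps reads numbered 93566, 77014 and 85916 in NPS-EMSC against 0, 0 and 10 in EMSC, in the direction of the labels. All 10 fixed mesenchymal markers were in the count table, with a summed level of 20697 to 22819 CPM (read counts scaled to a library total by TMM) in EMSC and 20606 to 21743 CPM in NPS-EMSC. Col1a1, Col1a2 and Vim carried most of that sum, and of the 10 genes 6 were called higher, among them Thy1 and Nt5e, and 4 lower, among them Pdgfra and Nes. The 11 leukocyte and macrophage markers summed to 57.0 to 71.5 CPM in EMSC and to 9.42 to 11.995 CPM in NPS-EMSC, with 6 called lower and 1 higher. The 5 glial markers summed to 29.3 to 32.1 and 5.83 to 7.21 CPM, with 3 called lower. The 6 epithelial markers in the table summed to 4.18 to 4.93 and 10.1 to 13.2 CPM, with 2 called higher. These 2, Krt8 and Krt18, carried most of that sum. Krt5 went the other way, with 7, 3 and 18 reads in EMSC and 0 in each NPS-EMSC library, too few to be tested. Epcam and Krt14 had under 10 reads over all libraries, and Cdh1 had 6 over EMSC and 4 over NPS-EMSC. The part of these other cell types in the results was not tested, and in bulk RNA fewer cells of a type and less RNA per cell cannot be told apart.

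Of the 38 genes, 35 had enough reads to be tested, and Mt3, Slc39a12 and Slc39a4 did not. A gene was called at an adjusted p under 0.05 in edgeR's quasi-likelihood test. By that rule 14 of the 35 were higher in NPS-EMSC, 8 lower and 13 not called, where 59.3% of all 14505 genes tested were called, 29.7% higher and 29.5% lower. In 25 of the 35 the groups did not overlap in CPM, beside 64.7% of all genes tested. On filtered log2(FPKM + 1) values, which lack TMM scaling, the split was 9 higher and 11 lower. Slc30a3 and Atp7b reached the read minimum in all 3 NPS-EMSC libraries but not in all EMSC libraries, so a high value in NPS-EMSC is what let them be tested. Among the 33 genes at that minimum in all 6 libraries, 12 were higher and 8 lower (60.6% called), a share near that of all genes. The median absolute log2 fold change of the 35 was 0.26, beside 0.34 over all genes tested. Only 5 of them, Mt2A, Slc30a3, Atp7b, Cp and Slc40a1, were both called and changed at least 2-fold (log2 fold change of 1), where 14.8% of all genes did so. Among the 33 genes at the read minimum in all 6 libraries, Cp and Slc40a1 were on the higher side, where 6.48% of all genes tested stood, and Mt2A on the lower side, where 8.3% stood. Nothing particular to the members is read from these counts. The plot of fitted changes by role shows this split.

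**Figure D1:**
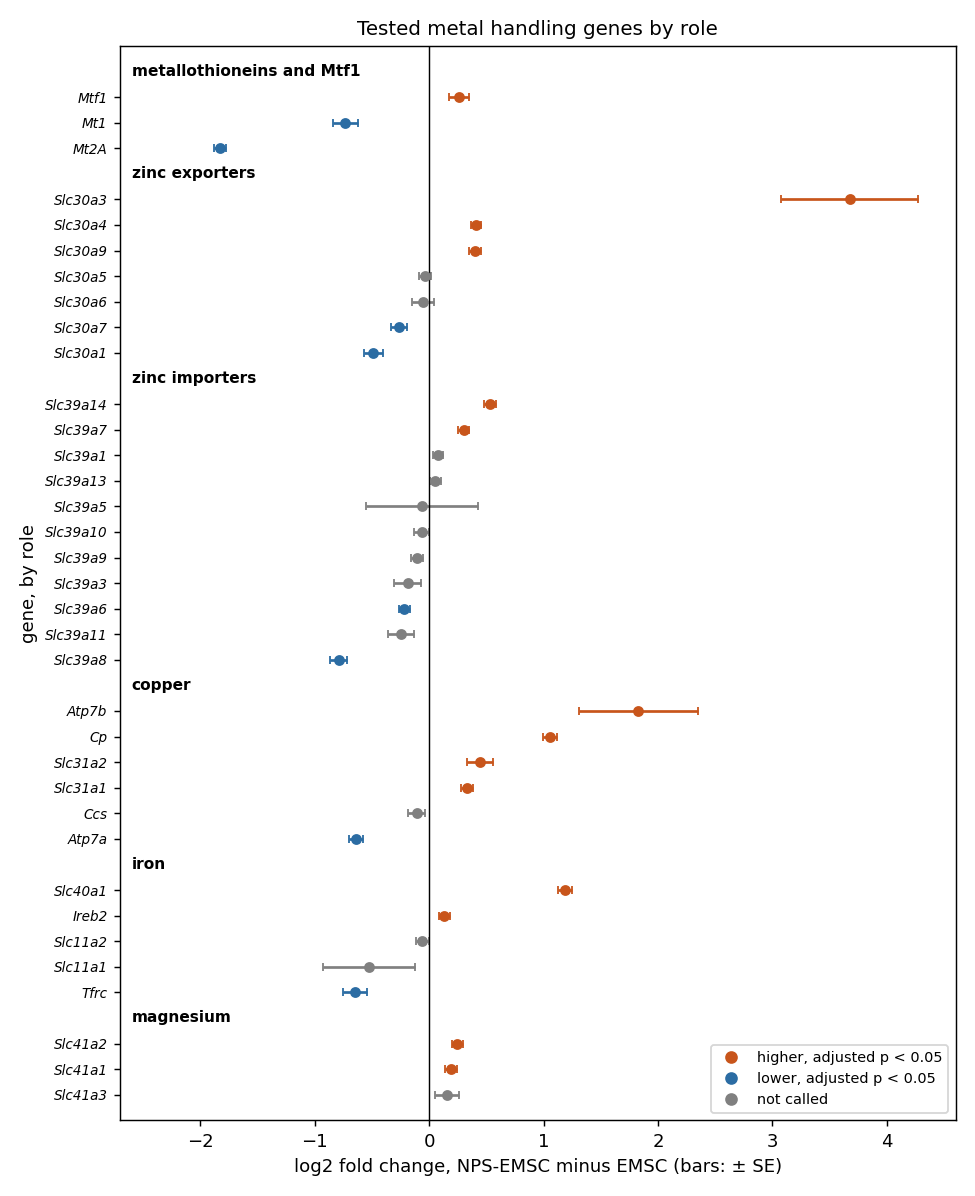
Fitted log2 fold change, NPS-EMSC minus EMSC, of the 35 tested metal handling genes by role, with bars for ± 1 SE. The metallothioneins lie on the lower side, Cp and Slc40a1 lie beyond 1 on the higher side, and most zinc importers lie close to 0.

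Metallothionein transcripts fell. Mt2A, the more abundant of the metallothionein genes here, stood at 821, 727 and 830 FPKM (the read count scaled to gene length and library total) in EMSC and at 218, 209 and 223 FPKM in NPS-EMSC. The groups lay far apart, and the NPS-EMSC libraries differed little from each other. The fitted change was 3.55-fold lower (log2 fold change -1.83, SE 0.05, adjusted p = 4.39e-20). Mt1, at 57.3, 48.2 and 48.6 FPKM in EMSC and 30.2, 33.8 and 25.7 FPKM in NPS-EMSC, fell by 0.73 on the log2 scale (SE 0.11, adjusted p = 2.70e-06), also without overlap. The drop was therefore unequal within the pair: Mt2A stood at 14.3, 15.1 and 17.1 times the FPKM of Mt1 in EMSC and at 7.20, 6.18 and 8.67 times in NPS-EMSC. Summed over Mt1, Mt2A and Mt3, the level went from 844 ± 59.6 to 247 ± 3.13 FPKM (SD, n = 3). Mt3, the metallothionein best known from brain, had 1 read over EMSC and 4 over NPS-EMSC, too few for a fold.

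Metallothionein genes are short and much alike, and reads may have been split between them and the pseudogene Mt1m. Mt1m was called lower too, with 46, 46 and 52 reads in EMSC and 13, 22 and 7 in NPS-EMSC (log2 fold change -1.58, SE 0.45, adjusted p = 0.00401).

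Mtf1 was not called lower with the genes it is known to activate. Its FPKM values were 2.20, 2.35 and 2.42 in EMSC and 2.73, 2.54 and 2.83 in NPS-EMSC, a narrow gap without overlap. Its change was 0.26 on the log2 scale (SE 0.09, adjusted p = 0.0121). That call was lost without EMSC replicate 1 (adjusted p = 0.0606), without NPS-EMSC replicate 3 (adjusted p = 0.0638), against a change of 1.2-fold (adjusted p = 0.468) and on log2 FPKM values (adjusted p = 0.0852 to 0.0897). Slc30a1, the zinc exporter of the outer membrane and also a known target of Mtf1, had 14.6, 16.3 and 13.5 FPKM in EMSC and 9.52, 10.4 and 10.9 FPKM in NPS-EMSC. It fell by 0.49 on the log2 scale (SE 0.08, adjusted p = 9.80e-06).

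The promoters of these genes are shown because the metal response element is the sequence through which Mtf1 is known to act on them. RefSeq promoters of rat build GRCr8 run from 250 bases before to 50 after the annotated start. They were searched on both strands for the element's core, TGCACNC or TGCGCNC, and matches that overlap were counted as 1. The matches are in capitals, and each sequence is given 5′ to 3′ on the strand of its gene, for Mt2A at chr19:10838659-10838958 (minus strand), Mt1 at chr19:10832926-10833225 (minus strand) and Slc30a1 at chr13:106021769-106022068 (plus strand).
Mt2A promoter: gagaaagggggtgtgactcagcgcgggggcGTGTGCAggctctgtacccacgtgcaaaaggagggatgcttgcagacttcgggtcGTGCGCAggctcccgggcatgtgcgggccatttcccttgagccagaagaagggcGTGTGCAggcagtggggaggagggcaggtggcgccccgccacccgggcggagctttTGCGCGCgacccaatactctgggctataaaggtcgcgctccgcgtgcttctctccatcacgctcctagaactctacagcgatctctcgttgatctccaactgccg
Mt1 promoter: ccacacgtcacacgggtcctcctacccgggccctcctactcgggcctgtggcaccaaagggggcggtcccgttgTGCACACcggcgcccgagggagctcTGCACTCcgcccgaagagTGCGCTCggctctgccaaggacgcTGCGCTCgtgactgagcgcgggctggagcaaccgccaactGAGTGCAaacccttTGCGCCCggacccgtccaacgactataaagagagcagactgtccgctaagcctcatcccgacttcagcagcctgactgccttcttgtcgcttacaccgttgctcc
Slc30a1 promoter: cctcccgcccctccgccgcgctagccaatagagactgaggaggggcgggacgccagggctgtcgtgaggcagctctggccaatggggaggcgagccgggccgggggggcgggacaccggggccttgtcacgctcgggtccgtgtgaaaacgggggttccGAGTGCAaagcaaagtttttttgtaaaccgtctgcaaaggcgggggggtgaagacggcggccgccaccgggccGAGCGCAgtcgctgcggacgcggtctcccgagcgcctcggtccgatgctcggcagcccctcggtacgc

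Mt1 held 6 separate matches and Mt2A held 4, where 0.0299% of the 33469 promoters searched held at least 6 and 0.257% at least 4. In Mt1 the first bases of the matches lay 176, 151, 133, 109, 69 and 55 bases before the start, and in Mt2A 220, 165, 111 and 55 bases before it. Mt1, with more matches, had the smaller fitted drop. Slc30a1 held 2 matches, 91 and 18 bases before the start, where 5.39% of all promoters held at least 2, and Mtf1 itself also held 2. Mt3, which was hardly detected, held 3 (1.13% of all promoters held at least 3). Among the 33 of the 38 genes with a promoter in the table, 17 held at least 1 match (51.5%), beside 24.2% of all promoters, and base composition was not compared. The 2 shares are not of like units. A member with more than 1 promoter was counted by the promoter with the most matches, whereas the share of all promoters counts each promoter singly. Slc30a4 and Slc39a7, with 3 matches each, were called higher. Slc39a8, Tfrc and Atp7a, all called lower, held 0, 2 and 0. A match describes the letters of the window and is not a measured binding site.

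**Figure D2:**
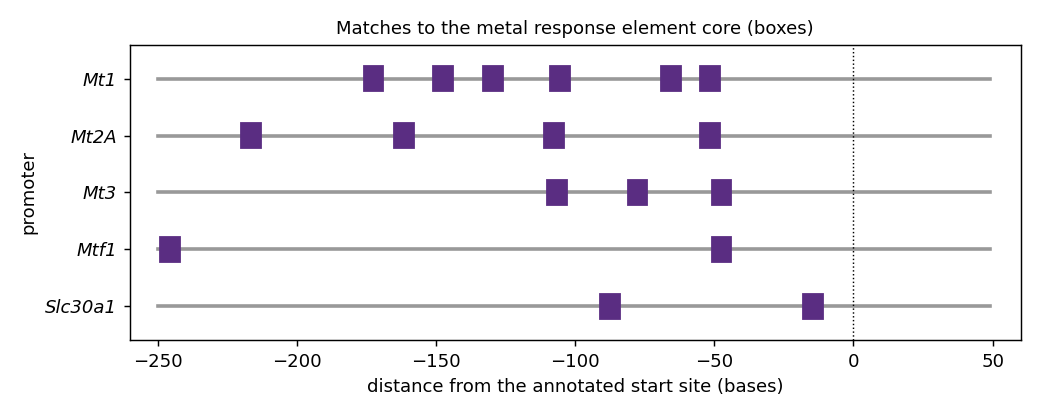
Positions of matches to the metal response element core (boxes, to scale) in the promoters of 5 genes, with the distance in bases from the annotated start site (dotted line) on the horizontal axis. Mt1 holds 6 boxes, Mt2A 4, Mt3 3, and Mtf1 and Slc30a1 2 each, all before the start site.

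Zinc exporters moved in both directions. Of the 7 Slc30a genes, 3 were called higher, 2 lower and 2 not called (71.4% called, beside 59.3% of all genes tested), and 1 of the 3, Slc30a3, could be tested through NPS-EMSC alone. Slc30a4, an exporter of endosomal and secretory vesicles with the highest exporter level per length, had 27.4, 28.6 and 28.9 FPKM in EMSC and 36.7, 35.5 and 37.1 in NPS-EMSC, and rose by 0.41 on the log2 scale (SE 0.05, adjusted p = 2.86e-08). Slc30a9, a mitochondrial zinc exporter, rose by a similar 0.40 (SE 0.05), from 20.3 ± 0.598 to 26.0 ± 0.544 FPKM (SD, n = 3). Beside Slc30a1, Slc30a7 fell from 22.3 ± 1.76 to 18.035 ± 0.497 FPKM (log2 fold change -0.26, SE 0.07, adjusted p = 0.00188, but 0.458 against a change of 1.2-fold). Slc30a7 loads zinc into the early secretory pathway, as do Slc30a5 and Slc30a6, which work as a pair and had log2 fold changes of -0.04 (SE 0.05) and -0.05 (SE 0.10) that did not pass.

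Slc30a3, the exporter known for loading zinc into synaptic vesicles, had 0 reads in all 3 EMSC libraries and 14, 30 and 25 reads in NPS-EMSC. Set against 3 counts summed over EMSC as the floor, it was 24.1-fold higher, with the NPS-EMSC reads taken as counted. That value allows for counting error in EMSC only, not in NPS-EMSC, and not for the spread between libraries. The fitted fold was smaller, at 12.8 (log2 fold change 3.67, SE 0.60). The level of Slc30a3 in NPS-EMSC was still low, at 0.200 ± 0.0712 FPKM (SD, n = 3). The summed level of the 7 exporters was 119 ± 4.46 FPKM in EMSC and 123 ± 1.12 FPKM in NPS-EMSC.

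Of 13 zinc importer genes of the Slc39a family, 11 were tested, and 2 were called higher, 2 lower and 7 not (36.4% called, beside 59.3% of all genes tested). Slc39a8 and Slc39a14 encode closely related importers that carry zinc, manganese and iron not bound to transferrin, and these 2 showed the largest importer changes, in opposite directions. Slc39a8 had 12.4, 11.6 and 14.1 FPKM in EMSC and 7.38, 6.53 and 7.38 FPKM in NPS-EMSC, a fitted fold of 1.73 lower (log2 fold change -0.79, SE 0.07, adjusted p = 1.45e-09). Slc39a14 had 14.4, 13.3 and 14.1 FPKM in EMSC and 20.2, 18.4 and 19.9 FPKM in NPS-EMSC (log2 fold change 0.53, SE 0.05, adjusted p = 9.61e-10). Neither gene's groups overlapped. The FPKM ratio of Slc39a14 to Slc39a8 was 1.16, 1.14 and 1.001 in EMSC and 2.73, 2.81 and 2.70 in NPS-EMSC. The pair stood near a ratio of 1 in EMSC and clearly above it in every NPS-EMSC library.

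The importers with the highest levels changed little. Slc39a1, a major importer of the outer membrane, made up 37.3% of the summed importer FPKM in EMSC and 37.6% in NPS-EMSC, and had 122 ± 5.06 and 125 ± 1.60 FPKM (SD, n = 3), a log2 difference of 0.08 that did not pass (SE 0.04, adjusted p = 0.118). Slc39a7, which releases zinc from the endoplasmic reticulum, rose from 71.4 ± 4.10 to 85.3 ± 2.12 FPKM (log2 fold change 0.30, SE 0.05, adjusted p = 5.32e-06). Slc39a6 fell from 43.2 ± 1.43 to 36.1 ± 0.794 FPKM (log2 fold change -0.22, SE 0.05, adjusted p = 3.69e-04). Against a change of 1.2-fold neither passed, with adjusted p = 0.177 for Slc39a7 and 0.844 for Slc39a6. Slc39a13, an importer of the secretory pathway whose loss disturbs connective tissue, had 29.3 ± 0.938 and 29.6 ± 0.771 FPKM and was not called (adjusted p = 0.354). The remaining tested importers Slc39a3, Slc39a5, Slc39a9, Slc39a10 and Slc39a11 had log2 fold changes of -0.19, -0.06, -0.11, -0.06 and -0.25, and none passed. The value of Slc39a5 rests on few reads, 12, 29 and 26 in EMSC and 29, 21 and 11 in NPS-EMSC. Its SE of 0.49 leaves a change in either direction possible. Slc39a3 and Slc39a9 did pass on filtered log2(FPKM + 1) values (adjusted p = 0.0266 and 0.0214). Slc39a4, the importer of the gut lining, had 13 reads over EMSC and 9 over NPS-EMSC, and Slc39a12 had 0 and 1. Summed over the 13 genes the level was 326 ± 10.1 FPKM in EMSC and 332 ± 3.24 in NPS-EMSC.

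**Figure D3:**
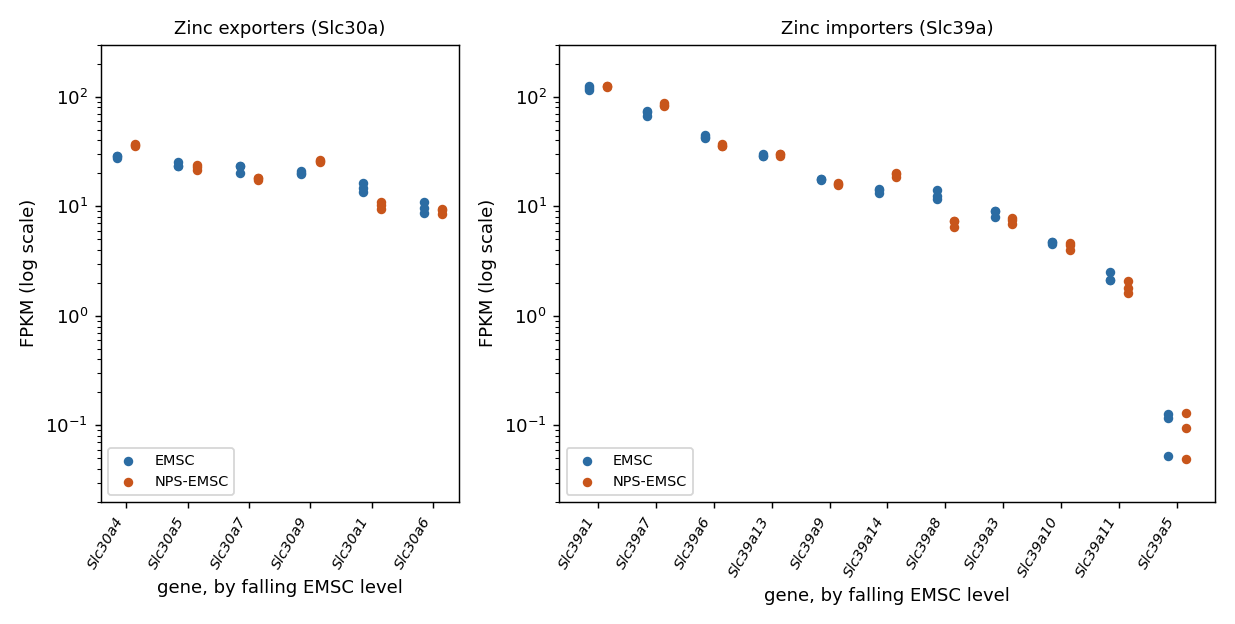
FPKM on a log scale of each tested zinc exporter and importer, 1 dot per library, genes ordered by EMSC level, without Slc30a3, whose EMSC libraries are at 0. Slc39a1 leads the importers at about the same level in both groups, and Slc39a8 and Slc39a14 part in opposite directions.

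Copper genes moved in both directions. Both Slc31a carriers were higher, and of the pumps Atp7a, the more abundant, was lower and Atp7b, with few reads, higher. Slc31a1, the high-affinity copper importer, had 17.8, 17.1 and 17.6 FPKM in EMSC and 21.2, 21.7 and 21.1 FPKM in NPS-EMSC (log2 fold change 0.33, SE 0.05, adjusted p = 2.85e-06), a call that was lost against a change of 1.2-fold (adjusted p = 0.0750). Slc31a2, its relative in vesicle membranes, rose by 0.45 on the log2 scale (SE 0.11, adjusted p = 0.00170), from 5.84 ± 0.636 to 7.72 ± 0.574 FPKM (SD, n = 3). Atp7a, the pump that loads copper enzymes in the Golgi and expels excess copper, had 7.995, 8.49 and 8.51 FPKM in EMSC and 5.52, 5.07 and 4.94 FPKM in NPS-EMSC, and fell by 0.64 on the log2 scale (SE 0.06, adjusted p = 1.51e-09). The groups did not overlap for any of these 3 genes. Atp7b, the pump best known from liver, was close to the detection limit, with 7, 4 and 10 reads in EMSC and 43, 16 and 27 reads in NPS-EMSC (log2 fold change 1.83, SE 0.52, adjusted p = 0.00402). Without NPS-EMSC replicate 1 its value was 1.44 and the call was lost (adjusted p = 0.0552), as it was on unfiltered log2(FPKM + 1) values (adjusted p = 0.0502). Ccs, the chaperone that delivers copper to superoxide dismutase 1, had 26.4 ± 0.309 and 23.7 ± 0.550 FPKM and did not pass (adjusted p = 0.212), but was called lower on filtered log2(FPKM + 1) values (adjusted p = 0.0136).

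Cp, a secreted copper enzyme that oxidises iron, rose 2.08-fold. Its values were 17.3, 19.8 and 17.2 FPKM in EMSC and 37.3, 34.5 and 37.9 FPKM in NPS-EMSC (log2 fold change 1.06, SE 0.06, adjusted p = 4.54e-13). Every NPS-EMSC library stood well above every EMSC library.

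Among the iron genes, the exporter rose and the transferrin receptor fell. Slc40a1, ferroportin, had 9.31, 8.68 and 8.55 FPKM in EMSC and 18.9, 20.9 and 18.9 FPKM in NPS-EMSC, a rise of 2.28-fold (log2 fold change 1.19, SE 0.06, adjusted p = 1.74e-14). Tfrc had 3.52, 3.58 and 3.05 FPKM in EMSC and 1.92, 2.27 and 2.07 FPKM in NPS-EMSC, and fell 1.57-fold (log2 fold change -0.65, SE 0.11, adjusted p = 9.32e-06). Both genes separated the groups fully. Ferroportin thus stood at 2.64, 2.42 and 2.80 times the FPKM of Tfrc in EMSC and at 9.84, 9.21 and 9.11 times in NPS-EMSC. Macrophages are also known for ferroportin, and the part of the leukocyte markers given above in this result was not tested.

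Of the remaining iron members, Slc11a2 and Slc11a1 did not pass. Slc11a2, the carrier that brings iron out of endosomes, had 9.08 ± 0.204 and 8.45 ± 0.178 FPKM (SD, n = 3) (adjusted p = 0.398). Slc11a1, its macrophage relative, had 32, 60 and 42 reads in EMSC and 35, 31 and 21 in NPS-EMSC, with overlap and a wide error (log2 fold change -0.53, SE 0.40, adjusted p = 0.268). Ireb2, iron regulatory protein 2, which protects Tfrc transcripts when iron is scarce, had a log2 fold change of 0.13 (SE 0.05, adjusted p = 0.0260). That call was lost without EMSC replicate 1 or 3 (adjusted p = 0.0976 and 0.108), without NPS-EMSC replicate 2 or 3 (adjusted p = 0.0720 and 0.0669), with upper-quartile scaling (adjusted p = 0.0939), against a change of 1.2-fold (adjusted p = 0.999997), and on log2 FPKM values (adjusted p = 0.170 to 0.190).

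**Figure D4:**
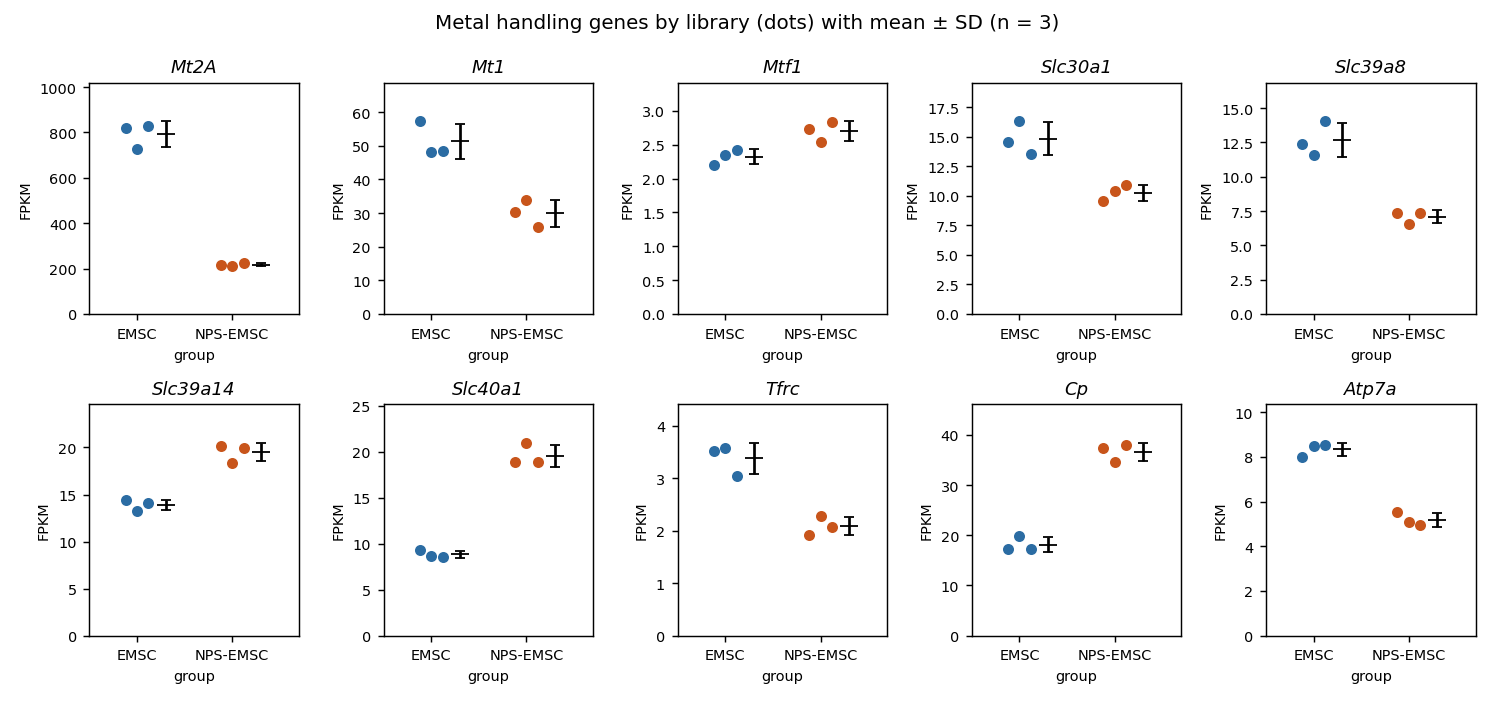
FPKM of 10 metal handling genes in each of the 6 libraries (dots), with mean ± SD (n = 3) beside them and axes from 0. Mt2A, Mt1, Slc30a1, Slc39a8, Tfrc and Atp7a lie lower in NPS-EMSC, Mtf1, Slc39a14, Slc40a1 and Cp lie higher, and no panel shows overlap.

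A list of 36 further iron and haem genes was examined beside these members. Of its 30 tested genes, 13 were called higher, 9 lower and 8 not (73.3% called, beside 59.3% of all genes tested), with a median log2 fold change of 0.07 beside -0.00479 over all genes tested. Steap4, a metalloreductase that reduces iron and copper for uptake, had 25.0, 27.4 and 27.0 FPKM in EMSC and 5.12, 5.74 and 5.47 in NPS-EMSC (log2 fold change -2.23, SE 0.07, adjusted p = 1.41e-19). Heph, hephaestin, a membrane-bound ferroxidase, went the other way from its relative Cp and had 9.32, 9.72 and 10.7 FPKM in EMSC against 2.62, 2.90 and 2.71 in NPS-EMSC (log2 fold change -1.80, SE 0.08, adjusted p = 1.44e-16). Slc25a37, mitoferrin 1, which carries iron into mitochondria, rose from 6.13 ± 0.0960 to 12.9 ± 0.580 FPKM (SD, n = 3), and Flvcr2, a transporter first described with haem carriers, from 0.464 ± 0.0808 to 4.20 ± 0.246 FPKM. Their log2 fold changes were 1.12 (SE 0.06) and 3.18 (SE 0.16).

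Ferritin and its regulators were looked up after the values were seen. The ferritin chains moved apart: Fth1, the heavy chain, had 1815, 1777 and 1780 FPKM in EMSC and 1367, 1405 and 1332 in NPS-EMSC (log2 fold change -0.34, SE 0.04, adjusted p = 2.93e-07). Ftl1, the light chain, had 1502, 1028 and 1027 FPKM in EMSC and 2354, 2773 and 2544 in NPS-EMSC (log2 fold change 1.15, SE 0.18, adjusted p = 0.00542). EMSC replicate 1 stood above the other EMSC libraries for Ftl1 but below every NPS-EMSC library. The FPKM ratio of Ftl1 to Fth1 was 0.828, 0.578 and 0.577 in EMSC and 1.72, 1.97 and 1.91 in NPS-EMSC, so the heavy chain had the higher FPKM in every EMSC library and the light chain in every NPS-EMSC library. Ferritin genes have many near-identical copies in mammalian genomes, and their counts are uncertain for that reason. Ncoa4, which delivers ferritin to lysosomes, rose by 0.42 on the log2 scale (SE 0.05), and Fbxl5, the ubiquitin ligase subunit that marks iron regulatory protein 2 for breakdown when iron is ample, by 0.58 (SE 0.05). Aco1, iron regulatory protein 1, fell by 0.24 (SE 0.05), and the iron reductase genes Steap3 and Cybrd1 each fell by 0.60 (SE 0.06). The fall did not extend to Steap1 and Steap2, which are in the same list, had higher FPKM and were not called. Steap1 had 82.1 ± 4.12 FPKM in EMSC and 83.6 ± 1.38 in NPS-EMSC (adjusted p = 0.231). Steap2 had 106 ± 4.87 and 99.9 ± 1.52 FPKM (adjusted p = 0.369).

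**Figure D5:**
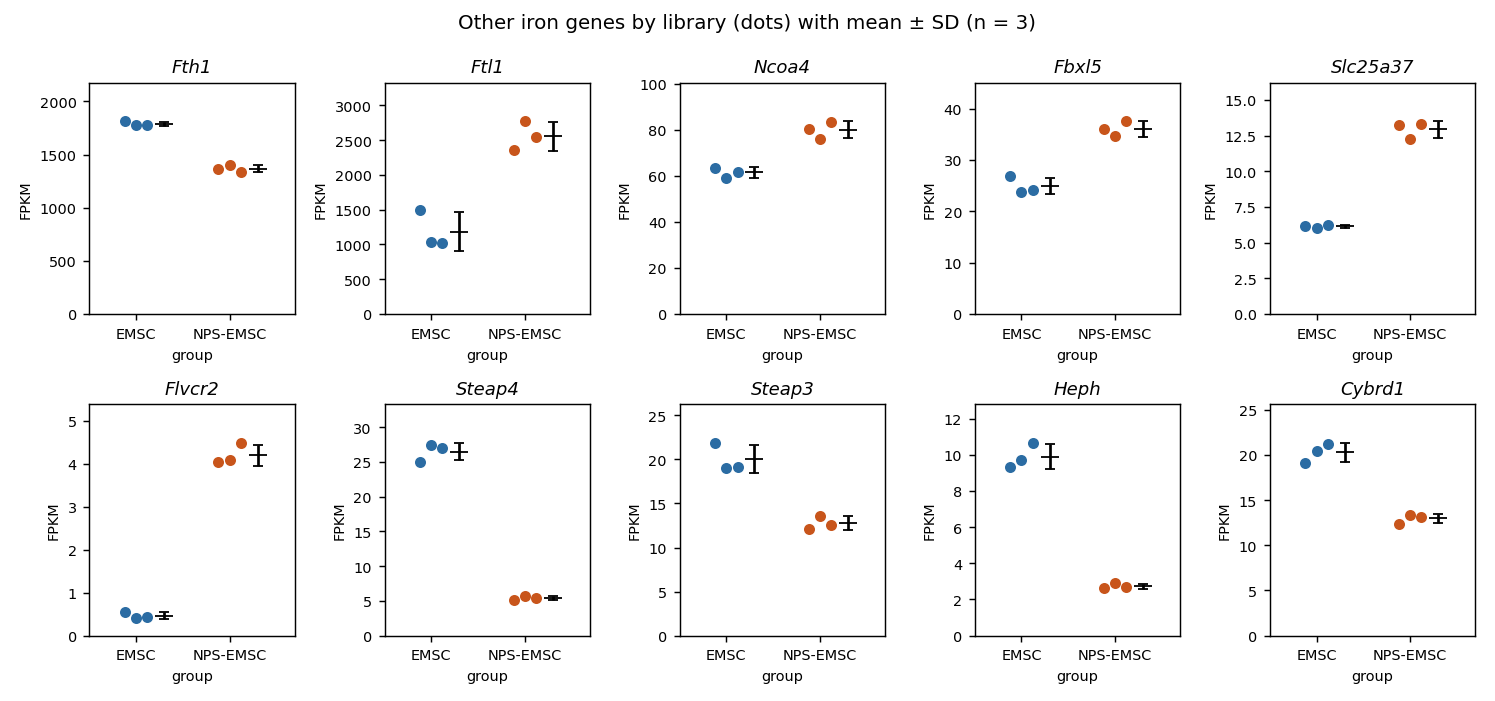
FPKM of 10 iron genes outside the 38 members in each of the 6 libraries (dots), with mean ± SD (n = 3) and axes from 0. Ftl1, Ncoa4, Fbxl5, Slc25a37 and Flvcr2 lie higher in NPS-EMSC and Fth1, Steap4, Steap3, Heph and Cybrd1 lower, without overlap in any panel.

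Among 18 tested genes of copper chaperones and copper enzymes, 7 were called higher, 7 lower and 4 not, where 29.7% of all genes tested were called higher and 29.5% lower. Cox17, which carries copper to cytochrome oxidase, had 19.1, 24.0 and 19.4 FPKM in EMSC and 67.5, 63.0 and 62.9 in NPS-EMSC (log2 fold change 1.67, SE 0.10, adjusted p = 3.83e-13). Its rise was not shared by all chaperone genes of the list. Atox1, Cox19 and Commd1 were called lower, with log2 fold changes of -0.28, -0.29 and -0.27. Cox11 was called higher, at 0.33, and Sco1 was not called. Of the copper enzymes that Atp7a is known to load, Sod3, extracellular superoxide dismutase, rose by 0.59 on the log2 scale (SE 0.05), from 550 ± 26.3 to 805 ± 21.97 FPKM (SD, n = 3). Within the lysyl oxidase family, which crosslinks collagen and elastin, Lox had the highest FPKM and fell from 399 ± 23.3 to 296 ± 2.63 FPKM. Loxl1 fell from 180 ± 9.61 to 116 ± 1.86 FPKM, and Loxl2 rose from 8.17 ± 0.462 to 15.1 ± 1.48 FPKM. Loxl3 and Loxl4 were also called higher.

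Magnesium carriers shifted little. Slc41a2 rose from 15.5 ± 0.363 to 17.8 ± 0.657 FPKM (SD, n = 3), by 0.25 on the log2 scale (SE 0.05, adjusted p = 1.04e-04), and Slc41a1, a sodium-coupled magnesium exporter, had 18.5 ± 1.04 and 20.5 ± 1.14 FPKM (log2 fold change 0.19, SE 0.05, adjusted p = 0.00423). The call of Slc41a1 was lost on log2 FPKM values (adjusted p = 0.0652 to 0.113), and those of both genes against a change of 1.2-fold (adjusted p = 0.942 for Slc41a1 and 0.608 for Slc41a2). Slc41a3 did not pass (log2 fold change 0.16, adjusted p = 0.196). Of 11 other tested magnesium genes, 4 were called higher and 4 lower (72.7% called, beside 59.3% of all genes tested). Cnnm2, linked to magnesium transport in kidney, had 3.70, 3.42 and 3.64 FPKM in EMSC and 10.6, 10.6 and 10.1 in NPS-EMSC (log2 fold change 1.59, SE 0.05, adjusted p = 2.31e-18), while its relative Cnnm3 fell from 11.04 ± 0.367 to 5.62 ± 0.123 FPKM (log2 fold change -0.93, SE 0.07). Magt1 and Tusc3, related subunits of the oligosaccharyltransferase that have been tied to magnesium uptake, fell by 0.52 and 0.63 on the log2 scale. Of 6 other tested zinc and manganese genes, Car2, the zinc enzyme carbonic anhydrase 2, rose, and Atp2c1, a Golgi calcium and manganese pump, and the ion channel gene Trpm7 fell, with log2 fold changes of 1.10 (SE 0.27), -0.65 (SE 0.05) and -0.35 (SE 0.05).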

How the data were processed

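The authors deposited raw read counts per gene symbol and an FPKM table of the same 20653 genes, with HISAT2, HTSeq, StringTie, fastp, DESeq and R 3.2.0 listed among the tools per the submitters' processing notes. For the genome build, annotation and strand setting, the sources used here give nothing. The deposited FPKM values were the counts rescaled by 1 length per gene and the column total. They carry no TMM scaling.

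Counts were tested with edgeR 4.0.16 in R 4.3.3 (TMM, filterByExpr with a minimum count of 10 and total of 15, robust glmQLFit with prior count 2, glmQLFTest), with Benjamini-Hochberg adjustment over 14505 genes. The SE was derived from the size of the log2 fold change and its F value (size over root F). For genes with few reads in 1 group it is a rough guide only.

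In simulated data for this comparison (14323 genes) the procedure recovered 32% of 1.2-fold, 78% of 1.5-fold, 98% of 2-fold and 100% of 4-fold changes, and called 4 of 14123 unchanged genes. Only 50 genes per fold were changed there, whereas 59.3% of genes were called in the real data. The changed genes were not of low level, and the simulated spread followed the trend over all genes, not that of each gene. These rates therefore need not hold here, least of all for genes with few reads such as Slc30a3, Atp7b and Slc39a5.

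The members and lists were chosen with earlier results of these data known. By the naming rule, called members with an absolute log2 fold change of at least 1, the most abundant members of each role and up to 4 genes of each further list by smallest p are described. Other genes and all FPKM ratios were chosen after their values were seen. Alternatives used limma 3.58.1 and DESeq2 1.42.0, other scalings, filters and thresholds, log2(FPKM + 1) and log2(FPKM + 0.1), the replicate number as a block, and leaving out each library.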

Additional observations from a re-analysis of the deposited data

How the results depend on the processing

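Of the 22 called genes, 13 kept their call under every alternative that gave them a value: Mt1, Mt2A, Slc30a1, Slc30a3, Slc30a4, Slc30a9, Slc39a8, Slc39a14, Atp7a, Cp, Slc31a2, Slc40a1 and Tfrc. Of these, Slc30a3 could be tested in the main fit through NPS-EMSC alone. It had a value in 15 of 18 alternatives, from 0.26 to 7.03 on the log2 scale. No called gene changed direction. Over 618 values of single genes, 28 lost a call and 13 gained one. The 14 genes called higher became 8 against a change of 1.2-fold, and 9 on log2(FPKM + 1) or log2(FPKM + 0.1) with a filter, which drops Slc30a3 and Atp7b and loses the calls of Mtf1, Ireb2 and Slc41a1. Leaving out 1 library gave 12 to 14 genes called higher and 8 to 9 lower, and 24 to 26 and 20 to 23 among the further lists. Slc39a11 was called lower without NPS-EMSC replicate 2 (log2 fold change -0.34, adjusted p = 0.0192). With the replicate number as a block, 14 members were called higher and 8 lower, so the block moved neither count. The deviations of same-numbered libraries correlated at -0.0641, 0.0897 and 0.0546, and not every library correlated best with its own number, so the numbers were not taken to pair the libraries. Depth limits Mt3, Slc39a4, Slc39a5, Slc39a12, Slc30a3 and Atp7b.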

Other observations

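Genes that use iron for haem and for iron-sulfur clusters, chosen from the further iron list after their values were seen, also differed between the groups. Alas1, the first enzyme of haem synthesis, rose by 0.73 on the log2 scale (SE 0.07, adjusted p = 1.30e-09), from 13.1 to 21.0 FPKM, while Fech, the last enzyme, had 11.01 and 10.9 FPKM and did not pass (adjusted p = 0.717). Hmox1, the inducible haem oxygenase that frees iron from haem, rose from 108 to 135 FPKM, and Hmox2, the constitutive form, fell from 14.3 to 11.3 FPKM. Of the haem carriers, Slc48a1, which moves haem out of lysosomes, rose by 0.54 (SE 0.05), and Slc46a1, a folate and haem importer, fell by 0.80 (SE 0.14, adjusted p = 3.56e-05).

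In the assembly of iron-sulfur clusters, the sulfur donor Nfs1 rose by 0.69 on the log2 scale (SE 0.07, adjusted p = 1.14e-08) and the scaffold Iscu by 0.37 (SE 0.05). The groups did not overlap for either gene.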
